A study of Mus musculus with 20 samples.

Results

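SPC4955 and SPC4061 are code names of 2 antisense oligonucleotides that were given to mice at the same dose of 10 mg/kg. The genes that tell them apart were sought in 8 of the 20 liver arrays of the study, the 4 labelled SPC4955 and the 4 labelled SPC4061. The remaining arrays came from 4 mice given saline, 4 given SPC3847 at 10 mg/kg and 4 given SPC3833 at 5 mg/kg. All were female C57BL/6 mice, dosed into a vein on 3 consecutive days, and each array held the liver RNA of 1 mouse. Livers were taken on day 3 by the treatment protocol, where dosing starts on day 0, whereas the sample source gives 4 days from the first dose. The study set each oligonucleotide against saline, and its design also allows the direct comparison described here. That comparison sets no array against saline, but saline is used afterwards to sort and place the genes it finds.

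Antisense oligonucleotides are short, made to order strands of nucleic acid that pair with an RNA whose sequence matches theirs. Many designs lower the paired RNA by recruiting RNase H, an enzyme that cuts the RNA strand of a hybrid with DNA, and the liver takes up much of a dose given into the blood. RNAs with a similar sequence can be bound too, and the animal can respond to the loss of a protein or to the compound itself. The labels state neither the target nor the chemistry of SPC4955 and SPC4061, so no gene is treated here as an intended target, and no difference in structure is named.

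The values are log2 intensities of 22361 genes, so a difference of 1 is 2-fold. The rows carry Ensembl mouse gene identifiers, 0 of which could be paired with a symbol. Genes are therefore described by how they moved, the labelled tissue was not checked against its markers, and 4 genes are given by identifier. In bulk liver RNA, fewer cells of a type and less RNA per cell cannot be told apart.

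Before any test, the SPC4061 arrays resembled each other more closely than the SPC4955 arrays did. The root mean square difference over all genes lay between 0.169 and 0.226 for the 6 pairs of SPC4061 arrays and between 0.192 and 0.359 for the 6 pairs of SPC4955 arrays. It lay between 0.25 and 0.416 for the 16 pairs made of 1 array of each. SPC4955 replicate 1 stood apart from its group: without it, the pairs within SPC4955 lay between 0.192 and 0.232, below all pairs between the oligonucleotides. Results that rest on this array are given with and without it.

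Between the oligonucleotides, 91 genes were at least 2-fold lower in the SPC4955 livers and 27 were at least 2-fold higher (limma, adjusted p below 0.05). They made up 0.407% and 0.121% of the genes tested. Of these 118 genes, 77.1% were thus lower with SPC4955. At least 4-fold lower with SPC4955 were 10 genes (0.0447%), and at least 4-fold higher were 3 (0.0134%). Without a minimum size, 1156 genes (5.17%) were lower and 801 (3.58%) higher, with a median change of 1.33-fold. The share that was lower was 57.6% among called genes with a difference of 0.25 to 0.5 on the log2 scale, 59.1% from 0.5 to 1 and 77.1% from 1 to 2. After median centring, 1217 genes were lower and 447 higher, so that 26.9% were higher in place of 40.9%. Over all genes the median difference was 0.02 on the log2 scale.

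**Figure D1:**
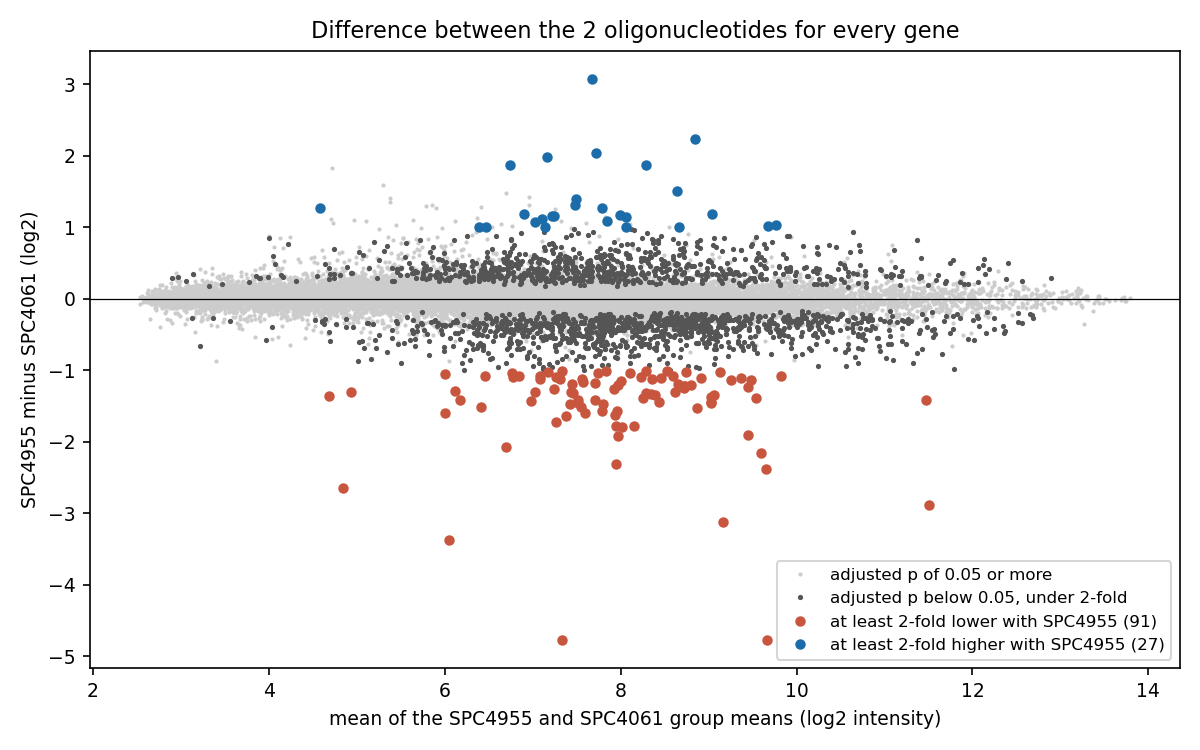
Each point is 1 of 22361 genes. The horizontal axis is the mean of both group means (log2 intensity) and the vertical axis is SPC4955 minus SPC4061 (log2). Of the coloured points, which differed at least 2-fold and passed the threshold, 91 lie below 0 and 27 above it, and the longest tail points down, to -4.77.

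The arrays of the 2 oligonucleotides did not overlap in 89 of the 91 lower genes and in 26 of the 27 higher ones. These genes were chosen for a large difference between the same arrays, so little overlap follows from the choice. Over all genes, the SPC4955 arrays lay below every SPC4061 array in 8.06% and above every one in 7.21%.

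Of the 2 genes with the largest differences in the downward direction, 1 was away from saline with SPC4955 and the other with SPC4061. ENSMUSG00000028127 had log2 intensities of 7.24, 7.20, 6.97 and 7.72 in the 4 SPC4955 arrays, against 12.05, 12.10, 12.13 and 11.93 in the 4 SPC4061 arrays. Every SPC4955 array lay at least 4.21 below every SPC4061 array. The gene was 27.2-fold lower with SPC4955 (log2 difference -4.77, SE 0.11, 95% interval -4.99 to -4.54, limma adjusted p = 1.79e-16). Its saline arrays read 12.09, 12.10, 12.01 and 12.03, among the SPC4061 values, and its mean was 11.98 ± 0.05 with SPC3847 and 11.84 ± 0.11 with SPC3833 (SD, n = 4 each). SPC4061 minus saline was 0.00 with a 95% interval of -0.23 to 0.22 (limma adjusted p = 0.989). Only the SPC4955 livers were low for this gene among the 5 groups.

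ENSMUSG00000038092 read 5.51, 5.01, 4.53 and 4.74 in the SPC4955 arrays and 9.47, 9.73, 9.44 and 10.22 in the SPC4061 arrays. Here the SPC4061 arrays were the high ones, with a gap of 3.93 to the nearest SPC4955 array. The gene was 27.3-fold lower with SPC4955 (log2 difference -4.77, SE 0.31, 95% interval -5.42 to -4.12, limma adjusted p = 3.14e-09). Its saline arrays read 4.93, 5.85, 4.67 and 4.89 and overlapped those of SPC4955. SPC4955 minus saline was -0.14 with a 95% interval of -0.79 to 0.51 (limma adjusted p = 0.897). The mean was 5.54 ± 0.22 with SPC3847, and with SPC3833, at the lower dose, it was 6.26 ± 0.76 (SD, n = 4 each). Its low values may hold background signal, so the fold is a ratio of deposited values and not an exact ratio of RNA.

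The 2 genes with the largest differences in the upward direction were both lower with SPC4061 than with saline. ENSMUSG00000032434 read 9.95, 10.00, 9.89 and 10.04 in the SPC4955 arrays, against 7.45, 7.91, 7.98 and 7.58 in the SPC4061 arrays. The groups were separated by 1.91, and the gene was 4.72-fold higher with SPC4955 (log2 difference 2.24, SE 0.09, 95% interval 2.05 to 2.43, limma adjusted p = 1.92e-12). Saline arrays lay between 9.73 and 9.91, SPC3847 arrays between 9.83 and 9.97 and SPC3833 arrays between 9.64 and 9.72, so that the SPC4061 livers stood below all others. SPC4061 was 4.27-fold lower than saline (limma adjusted p = 1.79e-11), and SPC4955 minus saline was 0.15 with a 95% interval of -0.05 to 0.34 (limma adjusted p = 0.46).

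ENSMUSG00000038656 had the larger difference and the less precise one. It read 10.46, 7.20, 9.69 and 9.52 in the SPC4955 arrays and 6.36, 6.25, 5.39 and 6.57 in the SPC4061 arrays. SPC4955 replicate 2 was the low one of its group and lay 0.636 above the highest SPC4061 array. The gene was 8.43-fold higher with SPC4955 (log2 difference 3.08, SE 0.52, 95% interval 1.99 to 4.16, limma adjusted p = 0.000507). The difference was 3.75 without SPC4955 replicate 2 and 2.66 without SPC4955 replicate 1, the highest of its group. The saline arrays of this gene also varied widely, from 8.42 to 10.55. SPC4061 was 10.6-fold lower than saline (limma adjusted p = 0.000255). SPC4955 minus saline was -0.33 with a 95% interval of -1.42 to 0.75 (limma adjusted p = 0.834), so a 2-fold decrease was not excluded. The mean was 8.65 ± 0.41 with SPC3847, 8.87 ± 0.46 with SPC3833 and 9.55 ± 0.89 with saline (SD, n = 4 each).

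**Figure D2:**
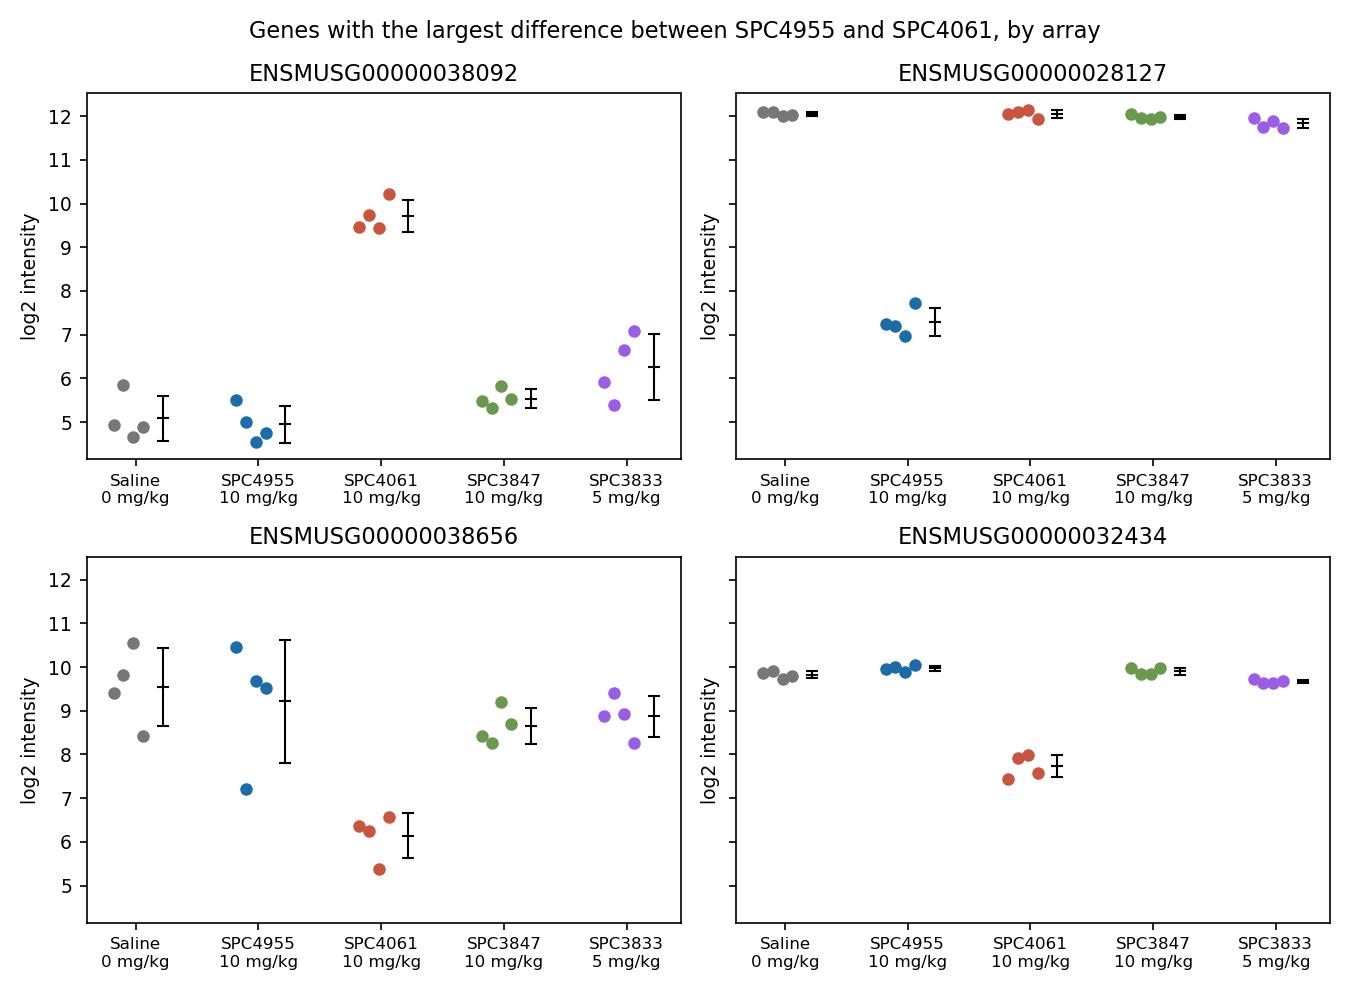
Points are single arrays and black bars are the mean ± SD of 4 arrays; the vertical axis is log2 intensity, and the groups stand along the horizontal axis with their dose in mg/kg. SPC4955 stands apart from the other groups for ENSMUSG00000028127, and SPC4061 for ENSMUSG00000038092 and ENSMUSG00000032434. For ENSMUSG00000038656, SPC4061 is the lowest group and SPC4955 replicate 2, at 7.20, lies below the rest of its group.

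The 118 genes were sorted by which oligonucleotide had moved them away from saline. Each was given its own 2 calls, SPC4955 against saline and SPC4061 against saline. Over all genes, SPC4955 was higher than saline in 4.22% and lower in 2.37%, and SPC4061 was higher in 8.73% and lower in 2.74%. These comparisons share arrays with each other and with the direct comparison, so the sorting is a description and was not tested. Averages of a group in the SPC4955, SPC4061 and saline arrays largely follow from the sorting, and show only how even the arrays were. A call with 1 oligonucleotide and none with the other is read here together with the direct difference between them, which all 118 genes passed.

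The largest group was lower than saline with SPC4955 and not called with SPC4061. It held 54 of the 91 genes lower with SPC4955 (59.3%), among them ENSMUSG00000028127. Their median difference from saline was -1.27 on the log2 scale with SPC4955 (range -4.77 to -0.69) and 0.03 with SPC4061 (range -0.83 to 0.88). Averaged over the 54 genes, the SPC4955 arrays differed from the saline mean by -1.55 to -1.22, and the SPC4061 arrays by -0.08 to 0.06. SPC4955 replicate 4 was the least low of the 4 SPC4955 arrays. In the same 54 genes the median difference from saline was -0.07 with SPC3847 and -0.12 with SPC3833. Averaged over these genes, the SPC3847 arrays differed from the saline mean by -0.25 to 0.04 and the SPC3833 arrays by -0.43 to -0.40. With SPC3833, 10 of the 54 were at least 2-fold below saline, the lowest at -3.32, and with SPC3847 this held for 0, the lowest being -0.95. Doses of SPC4955 and SPC3833 differed, so these values stand side by side and are not compared. Counts at 2-fold with SPC3833 and SPC3847, here and in the groups below, are of mean differences without a test. The share over all genes was not counted for them, so they are not read as more or fewer than usual.

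Next in size were 21 genes that were higher than saline with SPC4061 and not called with SPC4955, ENSMUSG00000038092 among them. They made up 23.1% of the 91. Their median difference from saline was 1.24 with SPC4061 (range 0.75 to 4.63) and -0.12 with SPC4955 (range -0.52 to 0.39). The SPC4061 arrays averaged 1.47 to 1.77 above the saline mean and the SPC4955 arrays between -0.30 and 0.17. Among these 21 were 4 of the 10 genes at least 4-fold lower with SPC4955, and the other 6 belonged to the group of 54. Replicates varied more here, with a median SD over genes of 0.365 with SPC4955 and 0.262 with SPC4061, against 0.216 and 0.108 in the group of 54. The arrays overlapped in 2 of the 21 genes. The median difference from saline was 0.01 with SPC3847 and -0.11 with SPC3833, but 2 of the 21 genes were at least 2-fold above saline with each, the highest at 1.21 and 1.35. In 3 of the 4 genes at least 4-fold apart, the SPC4955 mean was no higher than 5.08, the upper end of the dimmest 5591 rows, so their folds may hold background signal.

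A further 13 genes moved in opposite directions, being lower than saline with SPC4955 and higher than saline with SPC4061. Their median difference from saline was -0.88 with SPC4955 (range -1.37 to -0.54) and 0.43 with SPC4061 (range 0.28 to 0.70). With SPC4061, 0 of the 13 were as much as 2-fold from saline, and with SPC4955 5 were. The direct difference between the oligonucleotides was -1.46 in the median. On average over the 13 genes, SPC4955 arrays differed from the saline mean by -1.02 to -0.75 and SPC4061 arrays by 0.44 to 0.53. The SPC3847 arrays lay above the saline mean too, by 0.06 to 0.29, with a median over genes of 0.22. With SPC3833 the median was 0.06, and 1 of the 13 genes was at least 2-fold below saline. The number of genes in this group moved with the processing, to 5 with the quartile range of each array as a covariate and 27 with array weights. The last 3 of the 91 genes were lower than saline with both oligonucleotides, and lower still with SPC4955.

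Of the 27 genes higher with SPC4955, 17 (63.0%) were lower than saline with SPC4061 and not called with SPC4955, both named ones included. Their median difference from saline was -1.29 with SPC4061 (range -3.41 to -1.03) and -0.02 with SPC4955 (range -0.38 to 0.17). Averaged over the 17 genes, the SPC4061 arrays differed from the saline mean by -1.67 to -1.38, and the SPC4955 arrays by -0.13 to 0.05. The median difference was -0.06 with SPC3847 and -0.15 with SPC3833. On average over the 17 genes, the SPC3847 arrays differed from the saline mean by -0.35 to -0.03 and the SPC3833 arrays by -0.32 to -0.29. At least 2-fold below saline were 1 of the 17 genes with SPC3847, at -1.19, and 2 with SPC3833, the lower at -1.28.

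Another 9 of the 27 were higher than saline with SPC4955 and not called with SPC4061. The median difference from saline was 1.03 with SPC4955 (range 0.81 to 1.97) and -0.16 with SPC4061 (range -0.42 to 0.10). Replicates varied most in this group, with a median SD of 0.581 with SPC4955. Their average over the 9 genes was 1.37 in SPC4955 replicate 1, 1.08 in replicate 2, 0.80 in replicate 3 and 1.17 in replicate 4, so that all 4 arrays lay above the saline mean and replicate 1 highest. Of the saline arrays, replicate 1 was the highest too, at 0.24 on average over these genes, against -0.17 to -0.02 in the others. With SPC3833 the median was 0.38 above saline, and with SPC3847 it was -0.08. This group numbered 6 without SPC4955 replicate 1 and 5 with array weights. The remaining gene was lower than saline with both, by 2.11 with SPC4061 and 0.94 with SPC4955.

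**Figure D3:**
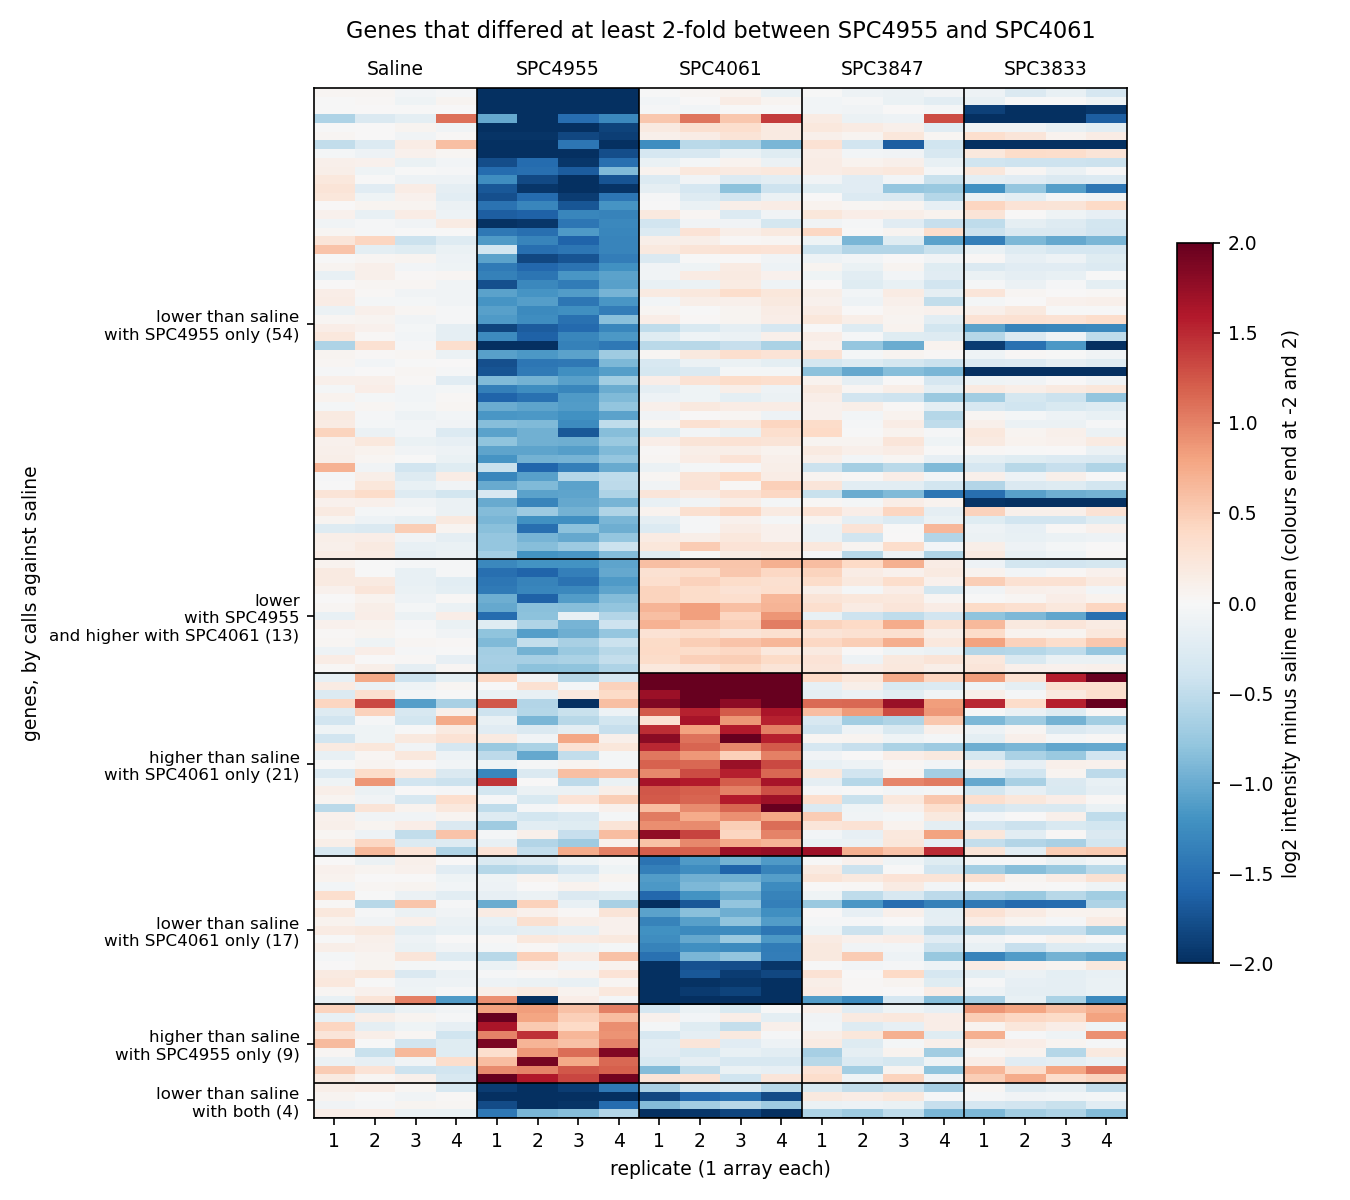
Rows are the 118 genes that differed at least 2-fold between SPC4955 and SPC4061, in blocks by their calls against saline, and columns are the 20 arrays. Colour is log2 intensity minus the saline mean, blue lower and red higher, with colours ending at -2 and 2. The upper block of 54 genes is blue across the SPC4955 arrays and pale across those of SPC4061, and the blocks of 21 and 17 genes are coloured across the SPC4061 arrays.

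Within this pair, genes called against saline with only 1 of the 2 oligonucleotides were lower in 54 cases with SPC4955 and in 17 with SPC4061, and higher in 21 with SPC4061 and in 9 with SPC4955. Some of these genes also differed from saline with SPC3833 or SPC3847, as the values above show.

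The balance between the 2 oligonucleotides was not the same among small and large differences. Of the genes lower with SPC4955, the saline mean was nearer to SPC4061 than to SPC4955 in 75.8% of the 91 with a difference of at least 1 on the log2 scale. It was nearer to SPC4061 in 53.9% of the 321 genes with a difference of 0.5 to 1, and in 31.7% of the 744 with a smaller one. Large differences in this direction thus mostly had SPC4955 farther from saline, and those below 0.5 mostly had SPC4061 farther from it. SPC3847, another oligonucleotide at the same dose, gave a reference that uses no saline array. Its mean was nearer to SPC4061 in 74.7%, 57.9% and 44.5% of the same genes. By this reference the smallest differences lay closer to an even split than by saline. Among genes higher with SPC4955 the order ran the other way, with saline nearer to SPC4061 in 33.3% of the 27 largest, 43.2% of 222 and 53.1% of 552. The SPC3847 mean was nearer to SPC4061 in 37.0%, 54.5% and 62.3% of these, so for the 222 genes the 2 references lay on different sides of an even split. The quartile range of an array's values was 3.02 to 3.20 with SPC4061 and 2.99 to 3.21 with SPC4955. It was 2.81 to 3.15 with saline and 2.70 to 3.16 with SPC3847. With it as a covariate, saline was nearer to SPC4061 in 46.6% of all lower genes, in place of 41.3%. What part of the small differences goes with this width was not tested. The group means carry error and the arrays are shared, so these shares are a description.

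**Figure D4:**
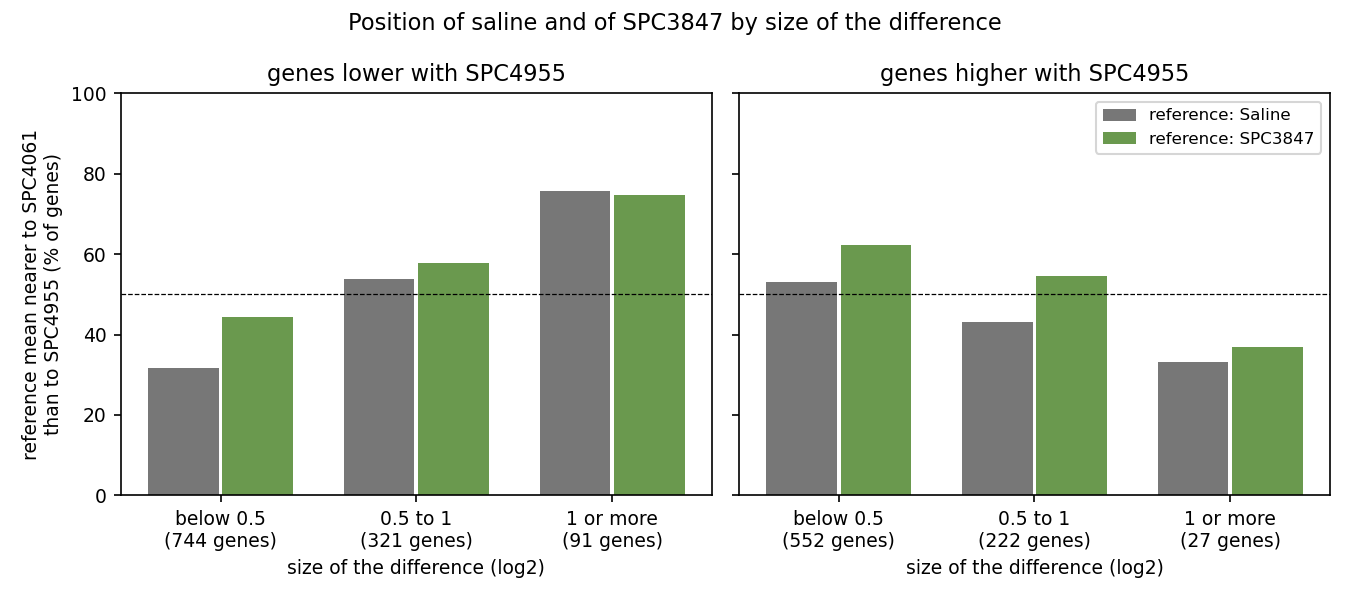
Bars give the share of called genes whose saline mean (grey) or SPC3847 mean (green) lay nearer to the SPC4061 mean than to the SPC4955 mean, by size of the difference between the oligonucleotides (log2); the dashed line marks equal shares. Among genes lower with SPC4955 the share with saline nearer to SPC4061 goes from 31.7% to 75.8%, and among genes higher with SPC4955 from 53.1% to 33.3%.

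Another set of genes had a large fitted difference without passing the threshold. All 91 genes fitted as at least 2-fold lower with SPC4955 passed, but of 56 fitted as at least 2-fold higher, 29 did not. In these 29 the median SD was 2.19 with SPC4955 and 0.144 with SPC4061, and SPC4955 replicate 1 was the highest of its group in 27. Averaged over the 29 genes and set against the SPC4061 mean, SPC4955 replicate 1 read 4.29, while the other SPC4955 arrays read 0.208, 0.234 and 0.113. The same average was 4.11 in saline replicate 1, against 0.155 to 0.269 in the other saline arrays. Without SPC4955 replicate 1 the median difference of the 29 genes was 0.06 in place of 1.13, 2 genes were still fitted as at least 2-fold higher, and 1 gene passed. For most of this set the fitted difference thus rested on 1 SPC4955 liver, and what set that liver and the saline one apart was not tested. The counts of genes at least 2-fold different were 93 lower and 28 higher without SPC4955 replicate 1, and 86 and 24 of these were among the 91 and 27.

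For most genes the comparison bounded the difference closely. The 95% interval of the difference had a median half-width of 0.199 on the log2 scale. It lay within 2-fold either way for 21866 genes (97.8%) and within 0.5 on the log2 scale for 18813 (84.1%). Some genes had moved far from saline with both oligonucleotides. At least 2-fold higher than saline with both were 6 genes, by a median of 1.41 with SPC4955 and 1.14 with SPC4061. Of these 6, 1 differed between the oligonucleotides, and counted separately, in 5 the interval of the difference lay within 2-fold either way. At least 2-fold lower than saline with both were 4 genes, by a median of -1.53 with SPC4955 and -1.10 with SPC4061. Of these, 2 differed between the oligonucleotides, and both were lower with SPC4955. Over all genes, 5.17% were called lower with SPC4955 and 3.58% higher. Sets of 6 and 4 genes are too small to be set against these shares.

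Called genes were more frequent among brighter rows, where 16.9% of the 5590 brightest passed in either direction, against 1.07% of the 5591 dimmest. Of the 118 genes, 4 came from the dimmest 5591 by their mean over all arrays, and in 6 the lower of the 2 group means was within the range of those rows. Brightness on an array depends on the probes as well as on RNA.

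**Figure D5:**
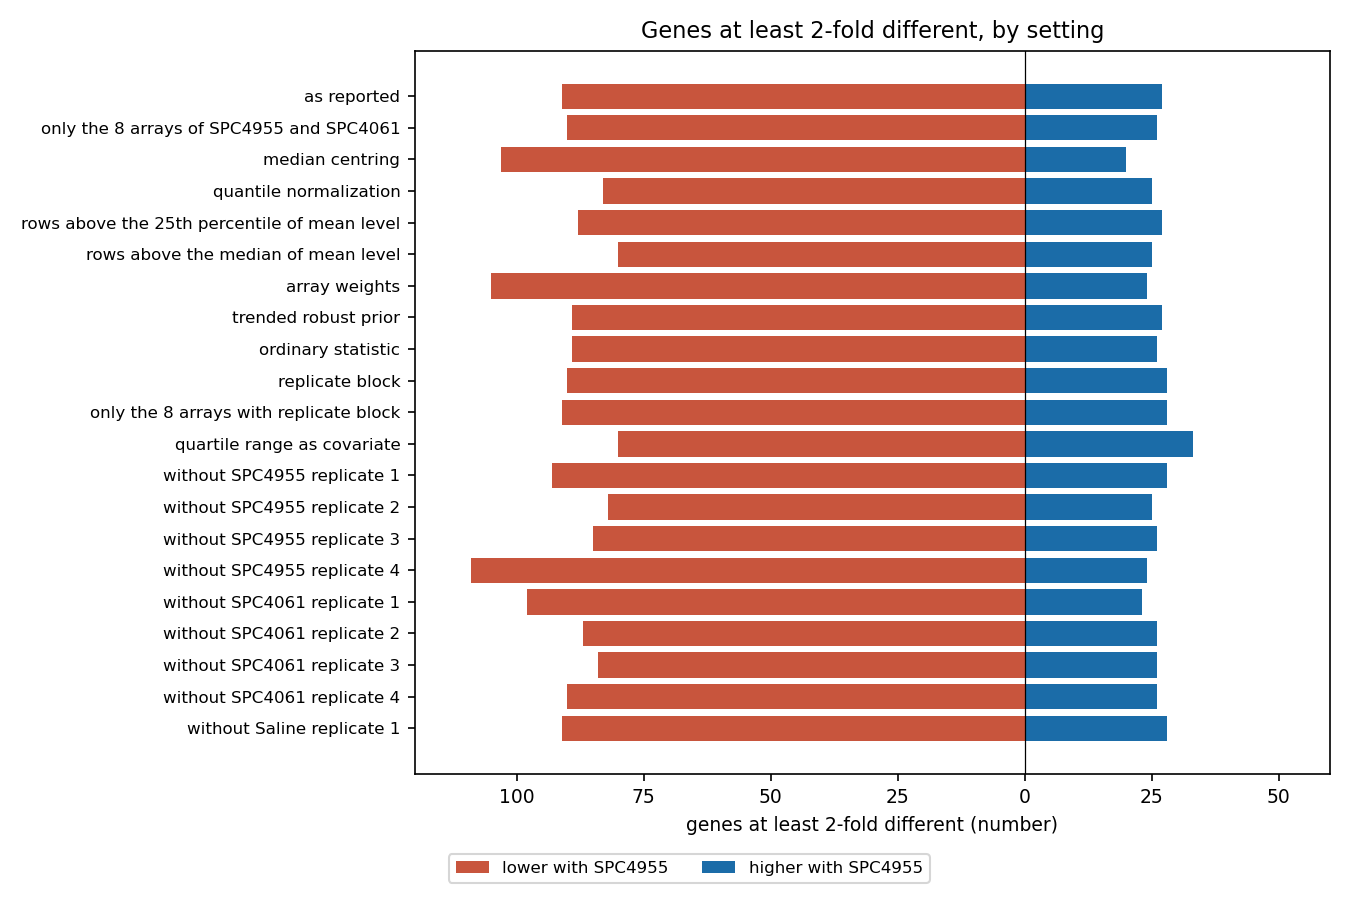
Bars give the number of genes at least 2-fold lower (left) and higher (right) with SPC4955 than with SPC4061 that passed the threshold, as reported and under each other setting. The lower genes number between 80 and 109 and the higher ones between 20 and 33, and under every setting shown more genes are lower than higher.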

How the data were processed

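The deposited file holds the authors' log2 intensities, with a single row for each gene and a column for each array. Per the labels' protocols, liver RNA was labelled with biotin by a whole-transcript sense-target method; the affy package is named in the submitters' processing notes. How background was corrected, arrays were normalized and probes were assigned is not given in the sources used here. Array medians were not equalised, and scaling moves the split of called genes. At 2-fold or more, median centring gave 103 lower and 20 higher, and the quartile range of each array as a covariate gave 80 and 33.

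In R 4.3.3, limma 3.58.1 fitted each of 22361 genes over all 20 arrays, with 1 mean for each treatment and 15 residual degrees of freedom, followed by contrasts and empirical Bayes moderation. Saline and the other oligonucleotides enter the direct contrast through the spread only. P-values were adjusted by Benjamini-Hochberg over all genes of a contrast, with a threshold of 0.05. No gene was filtered out. The model was tested on simulated data.

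Genes were named by the fixed rule for rows without symbols: the 2 largest differences in each direction among called genes whose arrays did not overlap. The members, lists and rules were chosen with earlier results of these data known. For want of symbols, 32 gene lists were not tested. The labels call the replicates biological, 1 mouse per array; the number of arrays limits the precision.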

Additional observations from a re-analysis of the deposited data

Results flagged for a closer look

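One array stood out in the group it belongs to. The spread of each array's deviations from its group mean (SD over genes) was 0.270 in saline replicate 1, against 0.148 to 0.163 in the other saline arrays. Its gap to the nearest was 0.882 of the group's range, above Dixon's 95% critical value for 4 samples. In all, 25 groups of 4 values were examined, the 4 named genes and this spread in each of the 5 groups, and chance marks about 1 in 20. In SPC4955 replicate 1 the spread was 0.236, against 0.135 to 0.168 in the rest of its group, and this gap did not pass.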

How the results depend on the processing

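The counts of genes at least 2-fold different kept within 1.5 times of the reported ones under all 20 alternatives, and so did the lower count of any size under all but 1. The fit of only the 8 arrays gave 90 lower and 26 higher at 2-fold or more, of which 90 and 25 were among those reported. Of any size, 447 genes were higher after median centring and 1229 with the quartile range of each array as a covariate, and array weights gave 1443 higher and 1893 lower. Leaving out each array of SPC4955 or SPC4061 gave 575 to 751 higher and 830 to 1364 lower of any size, and 23 to 28 higher and 82 to 109 lower at 2-fold or more. The 4 named genes kept their direction and passed under every alternative run on them, with adjusted p between 1.46e-18 and 0.0135; ENSMUSG00000038092 was not in the rows brighter than the median. The sorted group of 54 numbered 44 to 63, and that of 17 numbered 12 to 20, over 18 alternatives. The sorted group of 13 numbered 20, and that of 21 numbered 12, in those rows; without saline replicate 1, which was chosen after seeing the data as were all alternatives of the sorting and the positions, 91 genes were lower and 28 higher. The share of genes at least 2-fold lower whose saline mean was nearer to SPC4061 stayed between 74.3% and 82.5%, and that of all lower genes between 31.7% and 47.8%. With SPC3847 as the reference, the share of all lower genes was 50.6% in the main fit and 48.6% to 58.0% in the alternatives. The size classes below 2-fold were not rerun separately. With the replicate block, 748 genes were higher and 1068 lower, and 28 and 90 at 2-fold or more; same-numbered arrays of the 2 groups correlated at 0.206, -0.0171, 0.0688 and 0.137 in their deviations, so the numbers were not taken as pairs. The causes of these shifts were not tested. The alternatives for gene lists were not run. Signal over background was not analysed here.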
